A study of Mus musculus with 38 samples.

Results

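The comparison described here sets the control libraries of 2 model systems side by side: dividing forebrain neural progenitor cells (NPCs) grown in culture, and the adult mouse cortex. The members are 5 of the 38 samples of the series, 2 NPC lacZ control libraries (npc_ctrl_842 and npc_ctrl_867) and 3 Emx1-Cre cortex control libraries (emx_ctrl_64ctx2, emx_ctrl_65ctx2 and emx_ctrl_77ctx2), chosen by their sample labels and not by any measured value. The series asks what the co-repressor Trim28 does to transposable elements (TEs) in neural cells, and its knockout libraries enter below only where the reads of a single TE copy are listed. RNA of every library was sequenced from poly(A)-selected, stranded preparations, so that transcripts without a poly(A) tail, such as the replication-dependent histone mRNAs, were outside the measurement.

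The NPCs came from the forebrain of embryonic day 13.5 embryos of Rosa26-Cas9 knock-in mice and were kept as an attached layer with EGF and bFGF. They were transduced with a lentivirus carrying a guide RNA against the bacterial lacZ gene, which has no target in the mouse genome, together with a red nuclear reporter, and were sorted for the reporter 10 days later. The cortex was dissected from 3-month-old mice that were Emx1-Cre (+/-) and Trim28-fl (+/-). Emx1-Cre is active in the progenitors of the dorsal forebrain and therefore in their descendants, the excitatory neurons and much of the glia, so that by these labels the animals lacked 1 of the 2 Trim28 alleles in that lineage. The study's own text describes such controls in a legend as lacking Cre, in which case no allele was excised, and the labels were followed here without settling the point. Interneurons, microglia and vessels of the cortex arise outside it. Tissue and culture, age, genotype, the sort and the experiment all differed between the groups and cannot be told apart. Neither do the labels say whether libraries of 1 group came from separate cultures or litters, and the p-values measure only the spread between these libraries. In bulk RNA, fewer cells of a type and less RNA per cell cannot be told apart either.

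Neural progenitors divide and keep their genome in an open state, whereas nearly all neurons of the adult cortex have left the cell cycle. In both, TEs are held down, though the study reports that adult neurons, unlike progenitors, do not need Trim28 to silence endogenous retroviruses. KRAB zinc-finger proteins bind TE sequences and recruit Trim28, which brings in the histone methyltransferase Setdb1 and heterochromatin proteins to lay down H3K9me3, while DNA methyltransferases methylate the same elements. Endogenous retroviruses (LTR elements), LINEs and SINEs are the main TE classes of the mouse.

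The gene tables held 18488512 and 19922767 counts for the NPC libraries and 25345083, 17206220 and 21332513 for the cortex libraries. Gene levels are given as CPM, the counts per 1e6 counts of the library, scaled by trimmed mean of M-values (TMM), always in the order npc_ctrl_842 and npc_ctrl_867, then emx_ctrl_64ctx2, emx_ctrl_65ctx2 and emx_ctrl_77ctx2, and log2 fold changes are NPC over cortex with their standard error (SE). A gene or TE subfamily was called when edgeR's quasi-likelihood test gave a Benjamini-Hochberg adjusted p under 0.05 and the log2 fold change exceeded 0.5 in size. By that rule 12966 of 17807 tested genes (72.8%) differed, 6226 (35.0%) higher in NPCs and 6740 (37.9%) higher in cortex. Without TMM factors the split moved to 7949 and 5620 genes, that is from 48.0% to 58.6% of calls higher in NPCs, and the median log2 fold change of all genes went from -0.05 to 0.36. Values of single libraries did not overlap between the groups for 85.1% of genes, so a gene list is read below against a background in which most genes differed.

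Marker genes were in keeping with both labels, with Prom1 as the exception among the progenitor genes. Of 14 neural progenitor genes, 13 were higher in NPCs and 1 in cortex, with a median log2 fold change of 3.72. Sox2, a transcription factor of neural stem cells, was at 477 and 361 CPM against 51.6, 50.5 and 52.2 CPM (log2 fold change 3.03). Fabp7, the fatty acid-binding protein of radial glia, was at 2909 and 2687 CPM against 30.4, 27.4 and 27.8 CPM (6.61 ± 0.14). The intermediate filament gene Nes was at 449 and 1253 CPM against 16.5, 13.1 and 12.7 CPM (5.91 ± 0.44, and 4.98 without npc_ctrl_867). In these genes every NPC library was above every cortex library. Prom1, which encodes the surface protein CD133, was at 3.74 and 4.03 CPM in NPCs against 19.9, 20.5 and 30.7 CPM (-2.61). Olig2, a transcription factor of the oligodendrocyte lineage, was at 440 and 551 CPM against 11.3, 13.9 and 12.6 CPM (5.30), and Egfr, the receptor for the EGF in the medium, at 636 and 345 CPM against 22.3, 22.5 and 24.6 CPM (4.41).

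**Figure D1:**
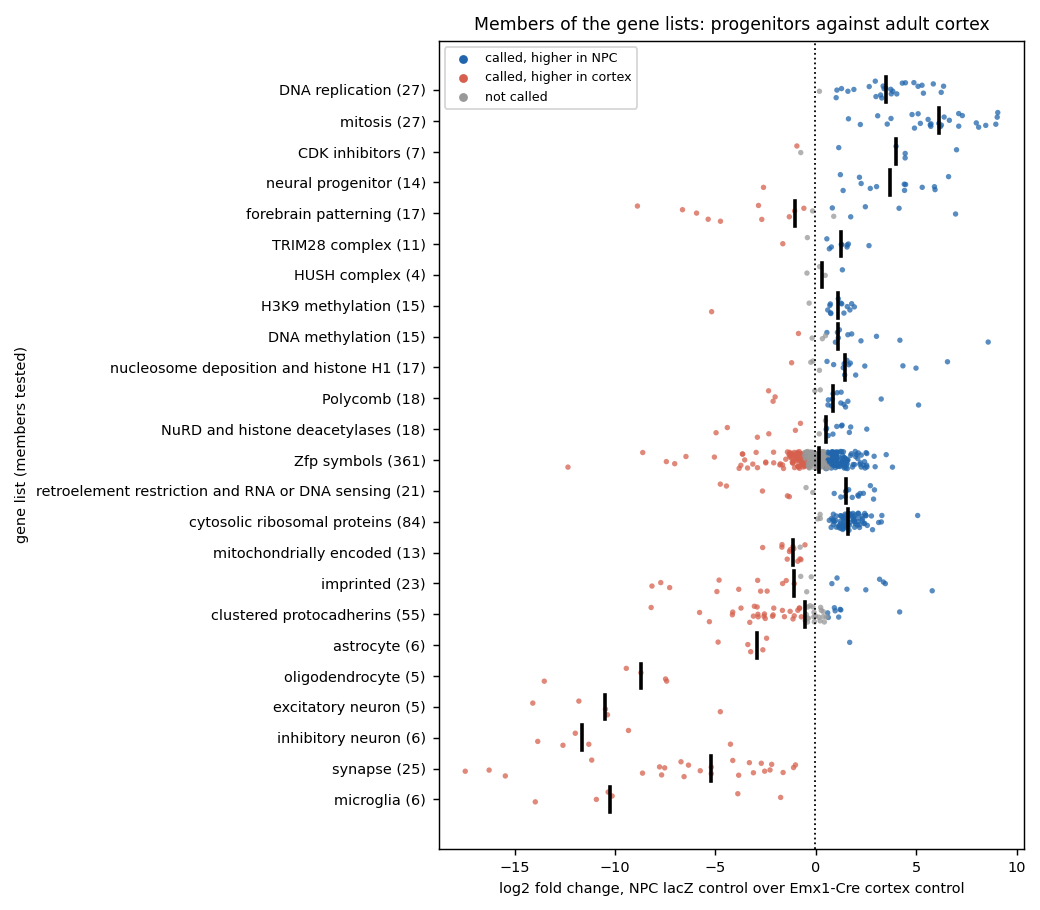
Log2 fold changes, NPC lacZ control over Emx1-Cre cortex control, of the tested members of each gene list, with 1 point per gene coloured by its call, a black bar at the list's median and a dotted line at the median of all genes. The mitosis and DNA replication lists lie to the right with medians of 6.13 and 3.48, and the synapse list lies to the left with a median of -5.21, while genes without counts in 1 group are drawn at their fitted value (with these at their bound, the medians of the inhibitory neuron and microglia lists are -8.75 and -6.10).

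Cell cycle genes were far higher in NPCs. All 27 tested genes of the mitosis list (28 genes were listed) and 26 of 27 DNA replication genes were higher in NPCs, none was higher in cortex, and the medians were 6.13 and 3.48. Top2a, the topoisomerase that untangles sister chromatids, was at 426 and 459 CPM against 0.740, 0.456 and 1.22 CPM (9.07 ± 0.28, edgeR adjusted p = 8.10e-07). Cdk1, the kinase that drives entry into mitosis, was at 87.7 and 129 CPM against 0.261, 0.261 and 0.106 CPM (8.97 ± 0.30). Bub1, a kinase of the spindle checkpoint, was at 62.8 and 72.6 CPM against 0.131, 0.195 and 0.0532 CPM (9.04 ± 0.25). The cortex libraries thus held well under 2 CPM of each. The smallest difference in the mitosis list was that of Anln, an actin-binding protein of the cleavage furrow, with 63.5 and 63.9 CPM against 21.8, 23.3 and 16.8 CPM (1.63). The 28th gene, the spindle motor Kif11, was not testable in the gene table, which gave it 1 count in all, while the TEtranscripts gene counts of the same libraries were 1840 and 1051 against 9, 7 and 8.

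Replication genes also separated the NPC libraries from each other. All 27 were higher in npc_ctrl_867 than in npc_ctrl_842, by a median ratio of 2.36 (range 1.43 to 6.39), against 20 of 27 mitosis genes with a median ratio of 1.16 and 50.1% of all genes. Mcm3, a subunit of the replicative helicase, was at 45.9 and 123 CPM against 1.92, 1.95 and 2.61 CPM (5.29 ± 0.45), and its log2 fold change was 4.41 without npc_ctrl_867. Cdc6, which loads that helicase at origins, was at 5.88 and 37.6 CPM against 0.218, 0.391 and 0.532 CPM (5.85 ± 0.89), with 3.97 without npc_ctrl_867 and 6.65 without npc_ctrl_842. Leaving out npc_ctrl_867 lowered the median of the list to 2.72 and leaving out npc_ctrl_842 raised it to 3.99, with 26 genes higher in NPCs either way. Pcna, the sliding clamp of the replication fork, was at 94.2 and 229 CPM against 43.7, 43.6 and 43.1 CPM (1.90, and 1.12 without npc_ctrl_867). Gins4, part of the helicase complex, had a log2 fold change of 0.18 and did not pass the test.

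Cell cycle genes are known for short promoter motifs, and the promoters of 5 of these genes are shown because they carry them. Windows from 250 bases before to 50 bases after the annotated start were taken from RefSeq (GRCm38.p6) and are printed 5′ to 3′ on the strand of the gene. In Top2a (chr11:99024140-99024439, minus strand), Bub1 (chr2:127831810-127832109, minus strand) and Cdk1 (chr10:69352863-69353162, minus strand), capitals mark CCAAT, the box bound by NF-Y, and TTTGAA or TTCGAA, the letters of the cell cycle homology region (CHR) bound by the MuvB complex, on either strand. In Cdc6 (chr11:98907901-98908200, plus strand) and Mcm3 (chr1:20820263-20820562, minus strand), capitals mark TTTGGCGC or TTTCCCGC, the letters of the E2F site, on either strand.
Top2a: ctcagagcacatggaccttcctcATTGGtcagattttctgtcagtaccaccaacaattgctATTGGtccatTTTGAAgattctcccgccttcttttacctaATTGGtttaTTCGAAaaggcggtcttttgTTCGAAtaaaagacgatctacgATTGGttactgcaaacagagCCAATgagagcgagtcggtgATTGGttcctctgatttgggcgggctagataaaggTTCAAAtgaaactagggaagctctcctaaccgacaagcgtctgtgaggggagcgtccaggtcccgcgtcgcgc
Bub1: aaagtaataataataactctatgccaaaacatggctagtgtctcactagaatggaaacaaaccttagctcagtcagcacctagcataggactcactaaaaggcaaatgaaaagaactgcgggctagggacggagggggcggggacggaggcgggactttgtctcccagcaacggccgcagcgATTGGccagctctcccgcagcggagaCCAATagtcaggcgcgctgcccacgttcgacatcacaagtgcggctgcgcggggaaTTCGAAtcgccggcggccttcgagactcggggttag
Cdk1: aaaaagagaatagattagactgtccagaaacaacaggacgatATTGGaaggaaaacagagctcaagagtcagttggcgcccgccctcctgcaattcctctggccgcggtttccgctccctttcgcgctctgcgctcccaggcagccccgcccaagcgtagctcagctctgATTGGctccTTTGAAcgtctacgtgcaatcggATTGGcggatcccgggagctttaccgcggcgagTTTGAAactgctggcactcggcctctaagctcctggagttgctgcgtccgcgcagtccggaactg
Cdc6: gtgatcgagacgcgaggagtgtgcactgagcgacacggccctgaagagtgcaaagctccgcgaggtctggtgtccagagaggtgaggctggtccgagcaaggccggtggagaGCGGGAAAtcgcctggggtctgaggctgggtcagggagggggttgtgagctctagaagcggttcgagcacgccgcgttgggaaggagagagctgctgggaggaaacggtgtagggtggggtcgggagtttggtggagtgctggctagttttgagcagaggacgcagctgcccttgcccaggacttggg
Mcm3: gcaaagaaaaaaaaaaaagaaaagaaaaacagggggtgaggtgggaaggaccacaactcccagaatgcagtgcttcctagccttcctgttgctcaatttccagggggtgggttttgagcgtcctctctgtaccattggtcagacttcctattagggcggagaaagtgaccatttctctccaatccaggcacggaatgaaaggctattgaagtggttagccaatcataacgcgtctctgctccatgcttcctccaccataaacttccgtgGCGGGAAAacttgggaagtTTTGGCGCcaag
The Top2a window held 6 CCAAT boxes, the first base of the nearest at -58 from the start, and 4 CHR matches. In Bub1 there were CCAAT boxes at -68 and -42 and a TTCGAA at 15, and in Cdk1 CCAAT boxes at -208, -80 and -48 with TTTGAA at -71 and -15. Cdc6 held 1 TTTCCCGC at -138, and Mcm3 held TTTCCCGC at 20 and TTTGGCGC at 39.

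Over 25 windows of 24 mitosis genes, CCAAT was found in 84%, a CHR match in 80% and both in 76%, against 37.4%, 19.2% and 7.52% of all 32851 promoter windows. Over 25 windows of 21 replication genes the shares were 60%, 20% and 16%, and the E2F letters were found in 32%, against 4.00% of the mitosis windows and 1.56% of all windows. The 23 windows of 14 synapse genes held CCAAT in 17.4%, a CHR match in 13.0% and the E2F letters in none. Searches covered both strands, so that CCAAT was also sought as ATTGG, the letters TTTGAA as TTCAAA and the letters TTTCCCGC as GCGGGAAA, and a match is a description of the letters, not a bound site.

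Inhibitors of cyclin-dependent kinases were not the mirror image of the cell cycle genes. Of 7 measured, 5 were higher in NPCs and 1 in cortex. Cdkn1a, which encodes the p53 target p21, was at 251 and 428 CPM against 16.3, 15.4 and 14.9 CPM (4.45). Cdkn2a, the locus of p16 and p19Arf, was at 5.43 and 14.2 CPM against 0.0435, 0.0651 and 0.106 CPM (7.01, and 6.15 without npc_ctrl_867). Cdkn2d was the member higher in cortex (-0.94), and Cdkn1c had -0.75 and did not pass, but was called without npc_ctrl_842 (-1.5).

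Genes that pattern the forebrain were mostly higher in the adult tissue. Of 22 listed, 17 were tested, 5 were higher in NPCs and 10 in cortex (median -1.06). Emx1, a dorsal telencephalic homeobox gene, had no count in either NPC library and 3.09, 2.15 and 3.35 CPM in cortex, at least 21.7-fold higher when 3 counts per library are taken as the floor. Dlx1, the homeobox gene of ventrally born interneurons, was at 0.456 and 0.254 CPM against 35.3, 36.1 and 36.1 CPM (-6.64). Higher in NPCs were Six3 (7.93 and 6.61 CPM in NPCs, log2 fold change 6.96, and 7.68 without emx_ctrl_64ctx2), Otx1 (1.74), Emx2 (0.82) and Otx2 (4.15, with 3.24 without npc_ctrl_842 and 6.47 without emx_ctrl_64ctx2). Lhx2 had -0.60 with all libraries and was not called in 4 of the 5 fits that left out a library, where its values lay between -0.69 and -0.29. None of the 39 Hox genes, which mark the hindbrain and spinal cord, could be tested, the highest having 5 counts over all libraries.

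Several known switches between dividing progenitors and neurons were seen as pairs of genes. The BAF chromatin remodeller exchanges the subunit Actl6a for Actl6b as neurons leave the cycle: Actl6a was at 43.9 and 56.4 CPM against 8.53, 9.64 and 9.58 CPM (2.44), and Actl6b at 0.228 and 0.339 CPM against 32.9, 33.3 and 30.6 CPM (-6.79). Another paired subunit, Ss18, had a log2 fold change of 1.88 and the neuronal Ss18l1 -1.68. Phf10, a further gene of these switches, had 1.12, and 0.32 without npc_ctrl_842. It was not called without emx_ctrl_64ctx2 (1.12), emx_ctrl_65ctx2 (1.05) or emx_ctrl_77ctx2 (1.16). The ATPase Smarca4 was higher in NPCs (119 and 148 CPM against 60.8, 56.9 and 55.4 CPM, 1.21), and its paralogue Smarca2 was higher in cortex (110 and 92.2 CPM against 412, 430 and 383 CPM, -2.02). Ptbp1, the splicing repressor of non-neuronal cells, was at 93.0 and 142 CPM against 7.62, 9.58 and 9.05 CPM (3.75), whereas Ptbp2 did not pass (-0.15). Rest, the repressor of neuronal genes, was higher in NPCs (2.77), and the neuronal splicing regulators Rbfox1 (-10.43) and Rbfox3 (-8.86) were higher in cortex. Over the 20 genes of this list 10 were higher in NPCs and 6 in cortex.

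Of 8 genes of developmental timing, 6 were tested, with 4 higher in NPCs and 1 in cortex. Igf2bp3, a fetal RNA-binding protein, was at 186 and 131 CPM against 5.44, 5.86 and 5.91 CPM (4.79). Igf2bp2 (5.21, and 4.47 without npc_ctrl_867) and the chromatin protein Hmga2 (7.85, and 6.51 to 8.57 when 1 library was left out) were also higher in NPCs. Lin28b, an inhibitor of let-7 maturation, was the member higher in cortex (-3.87).

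Neuronal genes were higher in cortex without exception among those tested: 5 of 5 excitatory, 6 of 6 inhibitory and 25 of 25 synapse genes. Slc17a7, the vesicular glutamate transporter of cortical excitatory neurons, was at 0.137 and 0.127 CPM against 478, 469 and 535 CPM (-11.81). Snap25, a SNARE protein of the presynapse, was at 2.14 and 2.63 CPM against 5278, 5480 and 5763 CPM (-11.17 ± 0.23). The synapse list also held a gene with many NPC counts. Gria2, an AMPA receptor subunit, was at 548 and 366 CPM against 913, 933 and 925 CPM (-1.01). Of the inhibitory neuron genes, Gad1, which makes GABA, was at 32.6 and 19 CPM against 481, 470 and 527 CPM (-4.25). At the other end of the synapse list, the GABA-A receptor subunit Gabrb2 had no NPC count and was at least 2098-fold higher in cortex.

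Other cell types of the tissue left few or no reads in the cultures. All 6 microglial, all 3 endothelial, all 5 oligodendrocyte and all 3 meningeal fibroblast genes were higher in cortex. Cx3cr1, the fractalkine receptor of microglia, had no NPC count and was at least 745-fold higher in cortex, and the tight junction gene Cldn5 of endothelium at least 148-fold. Both haemoglobin genes were at 0 in NPCs, with Hbb-bs at least 245-fold higher in cortex. Astrocyte genes went mainly the same way, 5 of 6 higher in cortex, with Gfap at 3.01 and 3.01 CPM against 32.4, 29.3 and 24.1 CPM (-3.25). Aldh1l1, a folate enzyme used as an astrocyte marker, was the sixth, at 164 and 120 CPM against 46.2, 42.2 and 44.0 CPM (1.69). Of the oligodendrocyte progenitor pair, Cspg4 (NG2) was at 74.6 and 67.8 CPM against 5.66, 5.02 and 6.07 CPM (3.67) and Pdgfra at 37.9 and 46.5 CPM against 48.3, 47.0 and 55.7 CPM (-0.25, not passing). The part of these cell types in the differences of other gene groups was not tested.

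Immediate early genes varied between libraries of 1 group. Of 10 tested, 3 (30%) were higher in NPCs and 4 (40%) in cortex, near the 35.0% and 37.9% of all genes. Fos was at 334 and 65 CPM against 7.96, 22.5 and 2.98 CPM (4.18, and 2.6 to 5.16 when 1 library was left out). Fosb was at 184 and 6.15 CPM against 4.61, 7.10 and 4.53 CPM (4.14), and its call was lost without npc_ctrl_842 (0.20) and without emx_ctrl_77ctx2 (4.02), while without npc_ctrl_867 it had 5.12.

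Among genes with a mean of at least 50 CPM, the 10 largest called differences in each direction were named by rule. Those higher in NPCs were 8030451A03Rik, Gm42047, Tnc, Top2a, Bub1, Eda2r, Cd109, Cdk1, Pclaf and Uhrf1. Tnc, an extracellular matrix glycoprotein of the stem cell niche (chromosome 4, 63959785 to 64047015, minus strand), was at 1006 and 846 CPM against 1.65, 1.17 and 1.06 CPM (9.45). 8030451A03Rik, the first by size (11.37, and 13.28 without emx_ctrl_64ctx2), spans 63979854 to 64149924 of chromosome 4 on the other strand and overlaps Tnc. It had 1599 and 1216 counts in the NPC libraries of the gene table but 5 and 19 in the TEtranscripts table, so its level is uncertain. Eda2r, a TNF receptor family member, had 9.00, the surface protein Cd109 8.97 (8.32 without npc_ctrl_867 and 9.64 without emx_ctrl_64ctx2) and Pclaf, a PCNA-binding protein, 8.71 (7.86 without npc_ctrl_867). Gm42047, an annotated lncRNA, is taken up with the endogenous retroviruses, and Uhrf1 with DNA methylation. Of those higher in cortex, 8 are named here and had no NPC count at all: Vsnl1, Fam107a, Stmn2, Lamp5, Mal2, Gpr26, Caln1 and Gabrb2, from the neuronal calcium sensor Vsnl1 (at least 7416-fold) to Caln1 (at least 2108-fold) and Gabrb2.

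Trim28, the gene deleted elsewhere in the series, was expressed in both systems and higher in NPCs, at 133 and 174 CPM against 25.0, 22.7 and 25.7 CPM (2.65 ± 0.15, 6.27-fold, edgeR adjusted p = 6.85e-06). On a scale corrected for gene length this was 138 TPM in NPCs and 15.7 TPM in cortex. By the labels the cortex animals carried a floxed Trim28 allele together with Emx1-Cre, the doubt about Cre applies here, and the allele and the tissue cannot be told apart. Of 12 listed genes of the Trim28 complex, 11 were tested, 9 were higher in NPCs and 1 in cortex (median 1.27), against 35.0% and 37.9% of all genes. Setdb1, which writes H3K9me3 at Trim28 targets, was at 80.5 and 102 CPM against 32.5, 29.8 and 30.6 CPM (1.56 ± 0.13, edgeR adjusted p = 4.73e-05). The heterochromatin protein HP1 alpha, from Cbx5, was at 942 and 1014 CPM against 334, 344 and 320 CPM (1.56 ± 0.11), and HP1 gamma, from Cbx3, at 305 and 457 CPM against 154, 167 and 153 CPM (1.27). For all of these the libraries of the groups stood apart. HP1 beta, from Cbx1, had 0.78 and was not called without npc_ctrl_867 (0.37) or without emx_ctrl_77ctx2 (0.68), and Atf7ip, the partner that stabilises Setdb1, had 0.55 and was not called without npc_ctrl_842 (0.38). The Trim28 relatives divided: Trim24 was higher in NPCs (1.62), Trim33 did not pass (-0.42), and Trim66 was higher in cortex (20.6 and 9.28 CPM against 47.8, 45.4 and 46.7 CPM, -1.65 ± 0.31, and -2.33 without npc_ctrl_842), although not when all 14 NPC and Emx1-Cre libraries shared the estimate of spread (adjusted p = 0.0560).

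**Figure D2:**
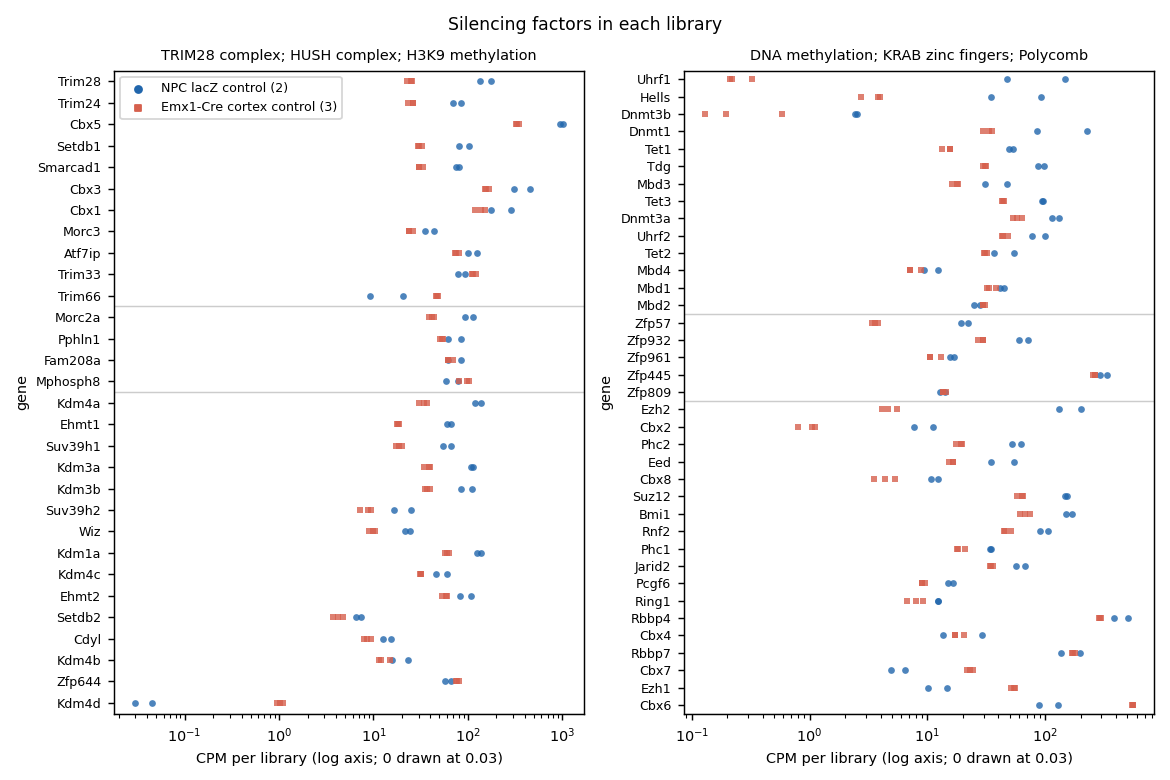
CPM per library on a log axis, with 0 drawn at 0.03, for genes of the silencing lists that were tested and are reported by name, with circles for the 2 NPC lacZ control libraries and squares for the 3 Emx1-Cre cortex control libraries. Trim28 and Setdb1 lie to the right in NPCs, and Trim66 lies to the right in cortex.

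The HUSH complex silences young retroelements together with Morc2a. Of these 4 genes Morc2a was called (93.4 and 114 CPM against 41.4, 43.8 and 38.9 CPM, 1.32). The others did not pass, with -0.44 for Mphosph8, which reads H3K9me3, 0.19 for the scaffold Fam208a and 0.47 for Pphln1. Without TMM factors 3 of the 4 were called higher in NPCs.

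Other enzymes of H3K9 methylation were higher in NPCs in 13 of 15 cases and in cortex in 1 (median 1.12). Ehmt1, which makes H3K9me2 with Ehmt2, was at 65.8 and 60.1 CPM against 18.1, 18.8 and 17.9 CPM (1.79), and Ehmt2 had 0.73. Suv39h1, which writes H3K9me3 at pericentric repeats, was at 54.2 and 66.9 CPM against 17.1, 20.3 and 18.7 CPM (1.70). Of the demethylases, Kdm4a had 1.92, Kdm3a 1.57 and Kdm1a 1.12, while Kdm4d was the list's member higher in cortex, at 0.0456 and 0 CPM against 0.958, 1.11 and 1.01 CPM (-5.19, with -7.37 without npc_ctrl_842 and -4.30 without npc_ctrl_867). Calls of Kdm4b (0.60) and Setdb2 (0.72) were lost when emx_ctrl_64ctx2 was left out (0.52 and 0.64), and that of Kdm4b also without npc_ctrl_842 (0.29) or emx_ctrl_65ctx2 (0.54).

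DNA methylation genes were mostly higher in NPCs, 11 of 15 tested against 1 higher in cortex (median 1.12). The maintenance enzyme Dnmt1 was at 85.2 and 227 CPM against 35.0, 33.6 and 29.8 CPM (2.25 ± 0.37, and 1.38 without npc_ctrl_867). Uhrf1, which brings Dnmt1 to newly copied DNA (chromosome 17, 56303321 to 56323486, plus strand), was at 47.3 and 146 CPM against 0.218, 0.326 and 0.213 CPM (8.59 ± 0.64, with 7.56 without npc_ctrl_867 and 9.18 without npc_ctrl_842). Like the replication genes, both were higher in npc_ctrl_867 than in npc_ctrl_842. The de novo enzyme Dnmt3a was at 132 and 114 CPM against 63.5, 58.0 and 53.0 CPM (1.08), with npc_ctrl_842 the higher library. Dnmt3b was at 2.42 and 2.54 CPM against 0.131, 0.195 and 0.586 CPM (3.02, and 3.91 without emx_ctrl_77ctx2). The oxidases Tet1 and Tet3 had 1.79 and 1.12, and the call of Tet2 (0.55) was lost without npc_ctrl_842 (0.24) and without emx_ctrl_64ctx2 (0.55), emx_ctrl_65ctx2 (0.52) or emx_ctrl_77ctx2 (0.56).

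Chromatin assembly and structure genes followed, with 13 of 17 tested higher in NPCs and 1 in cortex (median 1.44). Lmnb1, the B-type lamin, was at 463 and 743 CPM against 18.3, 21.5 and 17.1 CPM (4.99), and its receptor Lbr had 2.44. Atrx, which deposits histone H3.3 at repeats, was at 389 and 356 CPM against 335, 333 and 318 CPM (0.18) and did not pass, though it was called without TMM factors (0.59), while its partner Daxx had 0.89 (0.71 and not called without emx_ctrl_77ctx2). The H3.3 genes H3f3a and H3f3b had 1.44 and 1.72. The member higher in cortex was the linker histone gene Hist1h1e (-1.21), whose call was lost without npc_ctrl_867 (-0.91), emx_ctrl_64ctx2 (-1.15) or emx_ctrl_65ctx2 (-1.06).

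Paralogues of Polycomb, which represses by H3K27me3, went opposite ways. Of 18 genes, 13 were higher in NPCs and 3 in cortex (median 0.84). The methyltransferase Ezh2 was at 132 and 200 CPM against 4.66, 4.10 and 5.54 CPM (5.12 ± 0.23), and its paralogue Ezh1 at 14.6 and 10.2 CPM against 56.0, 54.8 and 51.8 CPM (-2.13). The readers Cbx2 and Cbx8 were higher in NPCs (3.26 and 1.40), and Cbx6 and Cbx7 higher in cortex (-2.35 and -2.03), with Cbx6 at 88.3 and 127 CPM against 552, 557 and 544 CPM. The shared core subunits Eed and Suz12 had 1.48 and 1.26.

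The NuRD complex and the histone deacetylases divided in the same manner, with 10 of 18 higher in NPCs and 6 in cortex (median 0.52). Among the remodellers of NuRD, Chd4 was at 444 and 641 CPM against 225, 239 and 193 CPM (1.31), Chd3 at 18.1 and 13.2 CPM against 349, 333 and 319 CPM (-4.41), and Chd5 had -4.97. Hdac1 was at 93.2 and 122 CPM against 18.8, 18.2 and 18.6 CPM (2.54) and Hdac2 had 0.85, while Hdac11 (-2.91, and -3.71 without npc_ctrl_842) and Hdac9 (-1.02) were higher in cortex. Of the Mta subunits, Mta1 and Mta2 were higher in NPCs (1.28 and 1.74) and Mta3 in cortex (-2.34). Over the other settings tried, the number higher in NPCs was 6 to 10 for the Trim28 complex, 8 to 13 for H3K9 methylation, 9 to 13 for DNA methylation, 9 to 14 for chromatin assembly, 8 to 13 for Polycomb and 6 to 12 for NuRD, and the median of each of these lists stayed above 0.

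KRAB zinc-finger proteins direct Trim28 to its targets. Of 7 listed for known TE or imprint targets, 5 were tested and 3 were higher in NPCs. Zfp57, which keeps imprints, was at 19.2 and 21.9 CPM against 3.83, 3.39 and 3.62 CPM (2.50), and Zfp932 at 72.0 and 59.7 CPM against 27.0, 29.6 and 29.8 CPM (1.19). Zfp809, which binds the primer binding site of murine leukaemia virus, was at 14 and 12.8 CPM against 13.4, 13.7 and 14.3 CPM (-0.04) and did not pass. Zfp445, another imprint keeper, was at 332 and 294 CPM against 265, 267 and 252 CPM (0.26) and did not pass either, although it was called without TMM factors (0.67). The call of Zfp961 (0.51) was lost without npc_ctrl_867 (0.45), emx_ctrl_64ctx2 (0.46) or emx_ctrl_65ctx2 (0.44). Over all 361 tested genes with a Zfp symbol, of 403 in the table, 124 (34.3%) were higher in NPCs and 81 (22.4%) in cortex (median 0.14). The shares of all genes were 35.0% and 37.9%. Without TMM factors the Zfp numbers were 184 and 46. The called members higher in NPCs were led by Zfp36, an RNA-binding protein that destabilises mRNAs (3.82, and 2.88 without npc_ctrl_842), and Zfp41 (72.0 and 49.3 CPM against 5.75, 5.21 and 5.00 CPM, 3.51), and those higher in cortex by Zfp831, which had no NPC count against 27.5, 34.7 and 33.3 CPM in cortex (at least 241-fold higher). Zfp symbols include genes without a KRAB domain.

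Factors that restrict retroelements or sense their nucleic acids were higher in NPCs in 14 of 21 tested cases and in cortex in 5 (median 1.48). Zc3hav1 (ZAP) had 2.88, the helicase Mov10 2.37, Apobec3 2.09, Samhd1 1.48 and the DNA sensor Cgas 2.92 (2.19 without npc_ctrl_867). The RNA sensor Ddx58 (RIG-I) had 1.64 and its adaptor Mavs 2.72. Adar, which edits double-stranded RNA, was at 41.7 and 32.6 CPM against 105, 92.8 and 99.9 CPM (-1.42), and the RNA sensor Ifih1 (MDA5) was likewise higher in cortex (-2.66). The exonuclease Trex1 was listed at 0 in the gene table, and its TEtranscripts gene counts were 45 and 55 against 43, 34 and 36. Of 12 germline defence genes only 4 could be tested, and 1 was called: Dazl, an RNA-binding protein of germ cells, at 0.0912 and 0 CPM against 7.09, 9.32 and 8.47 CPM (-7.37, with -6.40 without npc_ctrl_867 and -10.38 without npc_ctrl_842).

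TE expression was measured per subfamily with TEtranscripts, which assigns reads that map to several copies, and per copy with uniquely mapped reads. TEs took 3.09% and 3.05% of TEtranscripts counts in the NPC libraries and 2.04%, 2.08% and 2.14% in the cortex libraries. These ranges did not overlap, but 2 against 3 libraries cannot give a two-sided exact permutation p below 0.2, so no call was made. SINEs made most of the difference, with 1.61% ± 0.0136 (SD, n = 2) against 0.847% ± 0.0210 (SD, n = 3), a ratio of 1.90. LTR elements took 0.802% ± 0.000339 against 0.571% ± 0.00202 and LINEs 0.479% ± 0.0296 against 0.519% ± 0.0239. DNA transposons took 0.112% ± 0.00987 against 0.0801% ± 0.00372. Within the LTR class most of the excess lay in the GLN family of endogenous retroviruses: MMERGLN-int and MMERGLN_LTR together took 0.224% and 0.188% of counts in NPCs and 0.00133%, 0.00134% and 0.00139% in cortex. Without them LTR elements took 0.577% and 0.614% against 0.568%, 0.568% and 0.572%. All TEs other than SINEs and GLN took 1.26% ± 0.0160 (SD, n = 2) in NPCs and 1.24% ± 0.0307 (SD, n = 3) in cortex, with overlapping ranges.

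**Figure D3:**
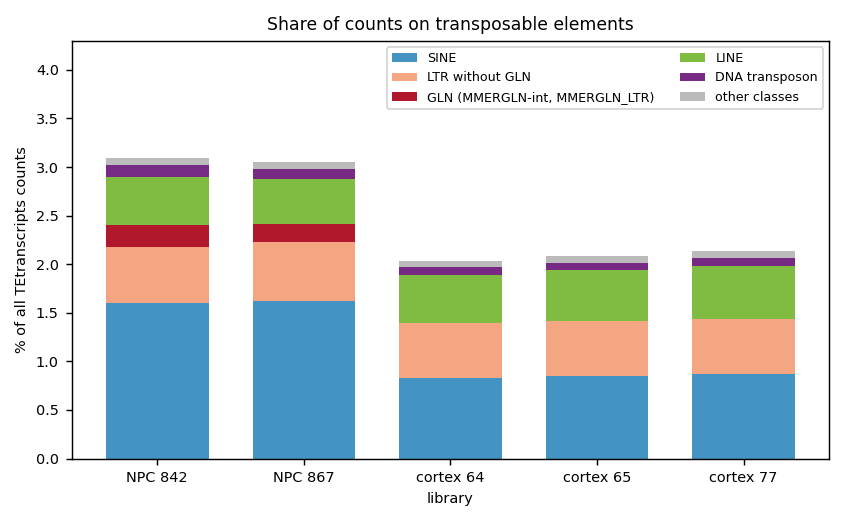
Stacked share of all TEtranscripts counts (%) on each TE class in each library, named by its group and the number in its label, with GLN elements drawn apart from other LTR elements. The total is 3.09% and 3.05% in the NPC libraries and between 2.04% and 2.14% in the cortex libraries, and the SINE and GLN layers make up most of the difference, with DNA transposons also apart (0.119% and 0.105% against 0.0772%, 0.0787% and 0.0843%).

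Of 806 tested subfamilies, 374 (46.4%) were called when scaled among TE counts, 188 (23.3%) higher in NPCs and 186 (23.1%) higher in cortex. That even split depended on the scaling: 50.3% of calls were higher in NPCs here, 35.6% when TE counts were scaled by the gene counts and 24.2% with TE totals and no TMM factors (93 and 291 subfamilies), and the median log2 fold change of all subfamilies was 0.01, -0.24 and -0.38. Values of single libraries did not overlap between the groups for 66.5% of subfamilies. The TE and the gene scaling use the same counts and differ by a near-constant shift. Calls in opposite directions could therefore hardly arise, and there were none. TE levels below are CPM of TE counts.

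GLN retroviruses, gammaretrovirus-like elements with a glutamine tRNA primer binding site, stood first: MMERGLN-int and MMERGLN_LTR had the largest log2 fold changes of all subfamilies with a mean of at least 100 CPM. All 4 subfamilies of the group were higher in NPCs under TE scaling, gene scaling and uniquely mapped reads. The internal part MMERGLN-int was at 71272 and 64105 CPM against 477, 466 and 468 CPM (7.17 ± 0.07, 144-fold, edgeR adjusted p = 4.18e-13) and MMERGLN_LTR at 10655 and 11450 CPM against 109, 110 and 116 CPM (6.63 ± 0.09). RLTR1B-int was at 410 and 617 CPM against 217, 176 and 230 CPM (1.30 ± 0.20). In uniquely mapped reads nearly all of the MMERGLN-int signal of NPCs came from 1 of 856 copies, an element of 7560 bases at chr8:121833275-121840834 (GRCm38, plus strand). It held 97.3% of the NPC reads and 17.6% of the cortex reads, with 45655 and 37530 reads against 26, 29 and 46. The copy lies in an exon of Gm42047 (chr8:121833247-121841178, plus strand) and in an intron of Gm20388. Gm42047 in the gene table was at 1964 and 1410 CPM against 1.26, 1.56 and 2.50 CPM (9.90 ± 0.33), a measurement of much the same reads. All other MMERGLN-int copies together were at 50.3 unique reads per 1e6 gene counts in NPCs and 8.24 in cortex, a ratio of 6.10, and 50 copies had at least 10 reads summed over the NPC libraries against 13 over the cortex libraries. The same copy had 19400 to 63289 reads in the 6 NPC libraries with Trim28 knocked out and 28 to 37 in the 3 cortex libraries with Emx1-Cre and Trim28 deleted. These read numbers, not scaled for depth, spanned those of the controls in NPCs and lay within them in cortex.

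The murine leukaemia virus group also had members higher in NPCs, at a lower level. MuLV-int was at 2007 and 2738 CPM against 304, 527 and 370 CPM (2.58 ± 0.20, 5.98-fold). Here 98.2% of unique NPC reads lay on the copy at chr5:23701114-23708710 (minus strand), in an exon of AI506816, with 4561 and 6535 reads against 46, 45 and 42. MuLV-int had only 2536 TEtranscripts counts over the 2 NPC libraries. The reads of this copy thus did not all enter the tested value, and which copies gave its difference was not tested. The other MuLV-int copies went the other way, at 4.56 unique reads per 1e6 gene counts in NPCs and 9.17 in cortex, a ratio of 0.497. RLTR4_Mm, the LTR of the group, was also higher in NPCs (3066 and 4518 CPM against 1104, 1366 and 1218 CPM, 1.63 ± 0.15). RLTR4_MM-int did not pass among TEtranscripts counts (14461 and 25268 CPM against 20099, 18377 and 16456 CPM, 0.12 ± 0.18) but was called in uniquely mapped reads (2.01).

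**Figure D4:**
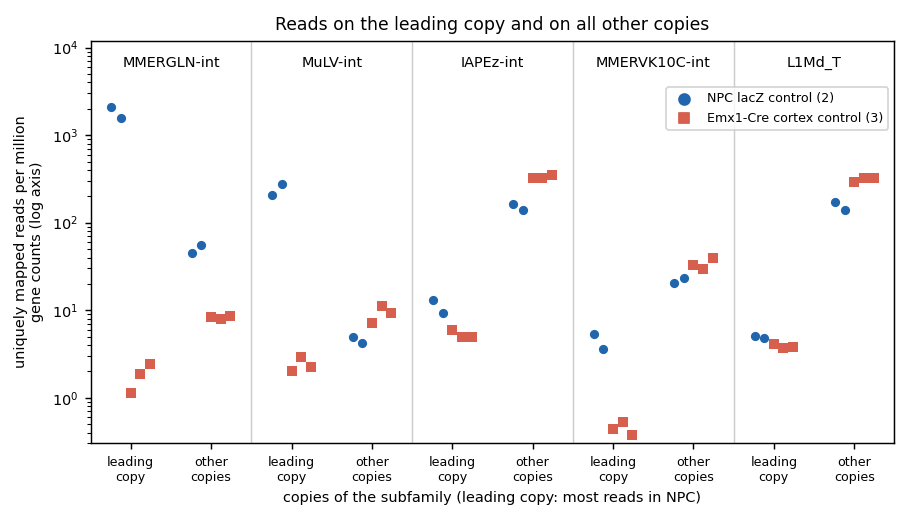
Uniquely mapped reads per 1e6 gene counts on a log axis, for the copy of each subfamily with most NPC reads and for all its other copies together, with 1 point per library. The leading MMERGLN-int and MuLV-int copies stand 1010-fold and 101-fold higher in NPCs on average, while the other copies of IAPEz-int and L1Md_T are lower in NPCs.

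IAP and MMERVK10C elements, known Trim28 targets in embryonic stem cells and neural progenitors, were mostly not called or higher in cortex. Of 19 IAP subfamilies, 2 were higher in NPCs and 9 in cortex (median -0.51), with 2 and 10 under gene scaling and 3 and 8 of 18 in uniquely mapped reads. IAPEz-int, the internal part of the most numerous IAPs, was at 20545 and 19568 CPM against 33213, 30533 and 33056 CPM (-0.69 ± 0.06, edgeR adjusted p = 6.42e-06), although it was not called when 14 libraries shared the estimate of spread (-0.73, adjusted p = 0.119). In unique reads 272 of its 7319 copies had at least 10 reads summed over the 3 cortex libraries and 92 over the 2 NPC libraries, sums of unequal depth, and the leading cortex copy at chr2:113810294-113816654, in an intron of Scg5 on the same strand, took 6.28% of the cortex reads. IAPEy-int was at 20.1 and 22.9 CPM against 137, 162 and 168 CPM (-2.84 ± 0.27). The exceptions were IAPEY4_I-int (854 and 1599 CPM against 435, 443 and 529 CPM, 1.38 ± 0.23) and IAP1-MM_I-int (1.27), the latter not called without npc_ctrl_867 (0.33).

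MMERVK10C-int was at 570 and 897 CPM against 1680, 1600 and 1820 CPM (-1.21 ± 0.17, edgeR adjusted p = 0.000255), but its uniquely mapped reads gave -0.18 and did not pass. The group of 9 had 3 members higher in cortex (33.3%, against 23.1% of all subfamilies) and none in NPCs. The other 2 members, RLTR10C (-1.25) and RLTR10-int (-0.65), were not called in unique reads either (-0.46 and 0.35). There RLTR10A was the 1 member called higher in cortex (-0.53). RLTR10-int was also not called without npc_ctrl_842 (-0.30), emx_ctrl_64ctx2 (-0.50) or emx_ctrl_65ctx2 (-0.66). MMVL30-int, a VL30 element, was at 1366 and 1163 CPM against 2209, 2121 and 2298 CPM (-0.81 ± 0.10, and -0.48 and not called in unique reads). Of the 5 VL30 subfamilies 3 were higher in cortex and none in NPCs, whereas in unique reads none was higher in cortex and 2 were higher in NPCs, RLTR6-int (1.96) and RLTR6B_Mm (1.36). Of the ETn and MusD elements, ETnERV2-int was higher in cortex (-1.85), and the call of ETnERV-int (0.65) was lost under gene scaling (0.40), in unique reads (0.01) and without npc_ctrl_842 (0.40). MERVL-int, active in the early embryo, had 0.11 and did not pass.

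**Figure D5:**
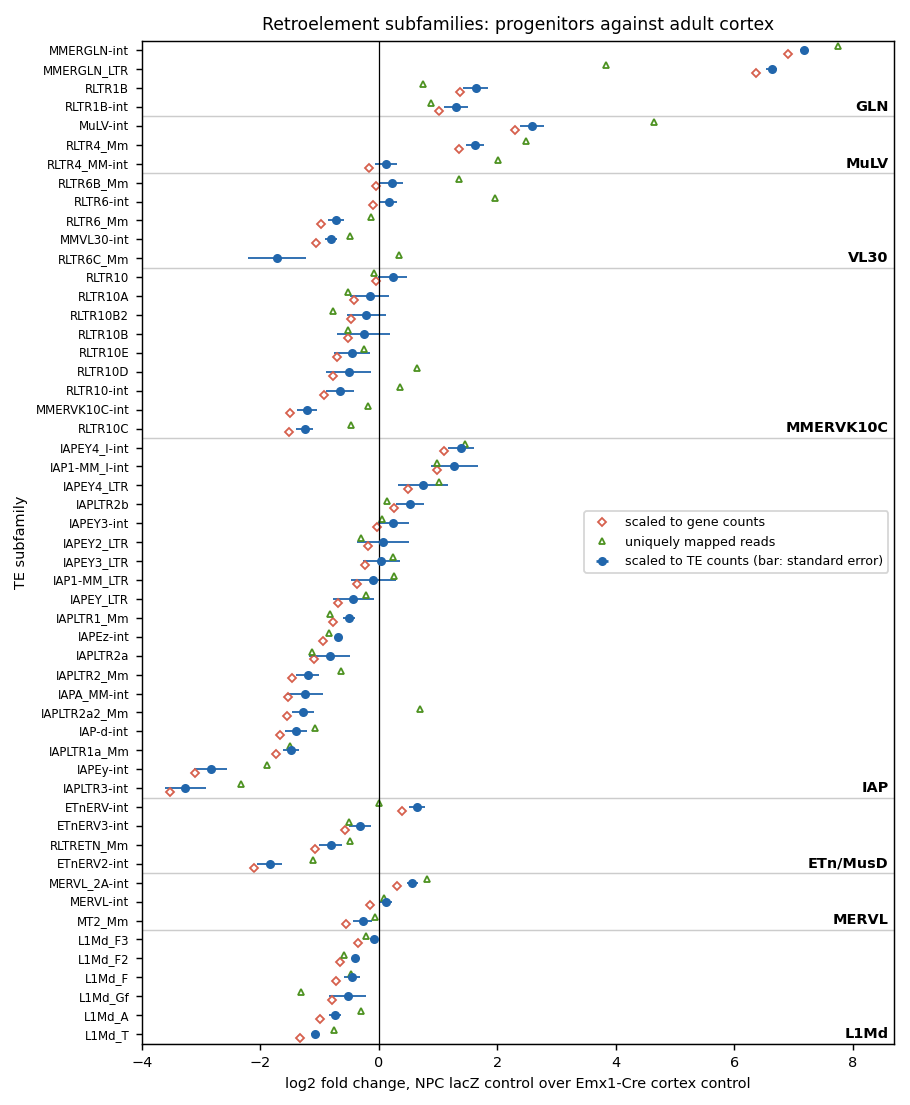
Log2 fold changes, NPC lacZ control over Emx1-Cre cortex control, of the retroelement subfamilies by group, with circles and SE bars for TE scaling, diamonds for gene scaling and triangles for uniquely mapped reads. GLN elements lie at the right end with MMERGLN-int at 7.17, and most IAP, MMERVK10C and L1Md elements lie left of 0.

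Young LINE-1 elements, the L1Md subfamilies, were higher in cortex in 2 of 6 cases and in none in NPCs, with 4 of 6 under gene scaling. L1Md_T was at 8027 and 7343 CPM against 15945, 16892 and 15874 CPM (-1.08 ± 0.06, edgeR adjusted p = 9.66e-07). Its leading cortex copy, a fragment at chr3:32946224-32946379 (minus strand) in an intron of Gm37459 on the opposite strand, had 8 and 15 reads against 1631, 1233 and 1085 and took 22.2% of unique cortex reads. L1Md_A was at 8465 and 6961 CPM against 11788, 12508 and 14211 CPM (-0.73 ± 0.10), with -0.31 and no call in unique reads. Over all 132 LINE subfamilies, 25 were higher in NPCs and 21 in cortex, with 15 and 33 under gene scaling.

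SINEs were the class most uniformly higher in NPCs, and the examples here were picked after their values were seen. Of 35 tested subfamilies, 28 were higher in NPCs and 1 in cortex under TE scaling, 17 and 1 under gene scaling, and 3 and 2 in uniquely mapped reads. In the B1 (Alu) family it was 15 of 16 (median 0.95), with 12 under gene scaling and 1 in unique reads (median 0.30). B1_Mus1, a young B1, was at 42965 and 49204 CPM against 22535, 22885 and 22962 CPM (1.02 ± 0.06), with 0.75 under gene scaling and 0.47 in unique reads. B3, of the B2 family, was at 52171 and 53032 CPM against 29880, 30229 and 31303 CPM (0.79 ± 0.04). AmnSINE1, an ancient SINE, was the member higher in cortex (563 and 607 CPM against 1612, 1448 and 1467 CPM, -1.37 ± 0.10). The B1 medians thus kept their sign but lost size as repeats were restricted to reads with 1 location. LTR subfamilies as a class had 88 of 484 higher in NPCs and 139 higher in cortex, with 60 and 164 under gene scaling and 114 and 115 in unique reads.

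The 10 subfamilies with the largest called differences in each direction, at a mean of at least 100 CPM of TE counts, often held many unique reads on few copies. After the GLN elements, those higher in NPCs included LTR82A (556 and 373 CPM against 4.88, 4.69 and 14.5 CPM, 5.79, with 6.52 without emx_ctrl_77ctx2 and 1.53 in unique reads) and RNERVK23-int (177 and 465 CPM against 14.6, 18.7 and 9.03 CPM, 4.51, and 3.67 without npc_ctrl_867). For RNERVK23-int 81.9% of the unique NPC reads fell on chr17:34998194-34998562 (minus strand), with 82 and 212 reads against 4, 6 and 4. Higher in cortex was RMER17D (124 and 242 CPM against 2548, 2685 and 1713 CPM, -3.66), with 71.3% of its unique cortex reads at chr10:81019950-81020246 in an exon of Diras1, a small GTPase of the brain, on the opposite strand. That copy had 3479, 2520 and 2238 unique reads in the cortex libraries, against 3659 TEtranscripts counts of RMER17D over all 3. RLTR20B5_MM (256 and 343 CPM against 1906, 1818 and 1803 CPM, -2.62) had 67.2% of its unique cortex reads on 1 copy at chr7:61528804-61529304 (minus strand), outside annotated genes, with 1 and 1 reads against 748, 508 and 594. X6B_LINE (-4.14) had 74.3% at chr14:66153472-66153523, in an exon of Ptk2b on the opposite strand, with 0 and 0 reads against 812, 559 and 849. Its TEtranscripts counts over the 3 cortex libraries were only 397. For RMER17D and X6B_LINE the reads of the exon copy thus exceeded the tested counts of the whole subfamily. At least part of those reads did not enter the log2 fold changes. By contrast RLTR1D2_MM (-4.74), RLTR34D_MM (-2.83) and RLTR41B (-2.57, and -3.46 without npc_ctrl_842) were not called in unique reads, where their log2 fold changes were -0.39, -0.24 and -0.11.

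The clustered protocadherins, whose promoters are chosen stochastically in neurons and depend on DNA methylation, had 27 of 55 tested genes higher in cortex and 8 in NPCs (median -0.53), and 22 and 15 without TMM factors (median -0.12). Their summed level went the other way, 570.0 to 629.7 CPM in NPCs against 440.8 to 499.6 CPM in cortex. Of the clusters only Pcdhg had a higher sum in NPCs (388.4 to 422.4 against 189.6 to 227.4 CPM), most of it from the single gene Pcdhgc3. The sums of Pcdha (5.7 to 8.1 against 39.1 to 51.7 CPM) and Pcdhb (173.5 to 201.6 against 212.1 to 220.5 CPM) were lower in NPCs. All 12 tested Pcdha genes were higher in cortex (median -3.20), while Pcdhb had 4 higher in NPCs and 8 in cortex of 21, and Pcdhg 4 and 7 of 22. At the end of the gamma cluster, Pcdhgc3 was at 309 and 299 CPM against 15.7, 15.8 and 18.9 CPM (4.18) and Pcdhgc5 at 1.19 and 1.40 CPM against 84.8, 73.4 and 58.1 CPM (-5.79). The isoforms of the Pcdha cluster, and those of the Pcdhg cluster, share their last exons, so the assignment of reads among them is uncertain.

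Imprinted genes went both ways, with a median of -1.07. Of 23 tested, 8 (34.8%) were higher in NPCs and 12 (52.2%) in cortex, against 35.0% and 37.9% of all genes. Mest, a paternally expressed hydrolase, was at 298 and 576 CPM against 37.2, 40.0 and 41.7 CPM (3.46), and Nnat at 237 and 197 CPM against 26.1, 18.6 and 18.3 CPM (3.37). Peg10, a gene derived from a retrotransposon, was at 291 and 624 CPM against 52.8, 51.3 and 47.6 CPM (3.18, and 2.52 without npc_ctrl_867). Meg3, a maternally expressed non-coding RNA, was at 0.228 and 0.254 CPM against 54.5, 45.7 and 57.0 CPM (-7.73), and Snrpn, a neuronal splicing factor, at 19.7 and 15.3 CPM against 548, 549 and 503 CPM (-4.93). Igf2 had 2 counts in the gene table and could not be tested, with TEtranscripts gene counts of 8 and 10 against 737, 418 and 389.

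Genes of protein synthesis and respiration also separated the systems. Of 84 tested cytosolic ribosomal protein genes, 81 were higher in NPCs and none in cortex (median 1.61), with Rplp0 at 557 and 592 CPM against 65.3, 67.3 and 64.2 CPM (3.13). Many ribosomal protein genes have near-identical pseudogenes, which limits how well their reads are placed. Of 13 mitochondrially encoded mRNAs, 12 were higher in cortex (median -1.14, 8 without TMM factors), and mitochondrial genes took 8.00% and 6.79% of gene counts in NPCs against 12.5%, 12.7% and 15.3% in cortex. Nuclear genes of oxidative phosphorylation showed no common direction: 7 of 74 were higher in NPCs and 20 in cortex (median -0.17), and without TMM factors the numbers were 22 and 9 and the median 0.23.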

How the data were processed

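Poly(A) RNA was read as stranded pairs of 150 bases. The authors aligned reads to GRCm38.p6 with STAR 2.6.0 and deposited raw counts: per gene with Subread 1.6.3 (featureCounts, strand-aware, unique reads, mates counted separately, GENCODE annotation), per gene and TE subfamily with TEtranscripts (reads with up to 100 locations), and per TE copy for uniquely mapped reads. Versions are from the submitters' processing notes. No option was stated that keeps reads overlapping more than 1 gene. The unique-read table counts copies inside exons as well. The tables held 6 columns of samples not analysed here, which were not used.

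From these counts, genes (55298 in the table, 17807 tested) and TE subfamilies (1153 in the table, 806 tested) were filtered by filterByExpr and fitted with edgeR 4.0.16 (R 4.3.3, TMM, quasi-likelihood F test, 2 against 3 libraries), with Benjamini-Hochberg adjusted p over each whole table. TE subfamilies were scaled among TE counts, with gene scaling and unique reads as alternatives, besides DESeq2 1.42.0, other scalings, filters, spreads and omitted libraries. Copies were placed against the GENCODE annotation of the same build. The exact permutation test for the TE share was two-sided. Folds against a group at 0 use a floor of 3 counts per library. Leading genes and subfamilies are the 10 largest called differences per direction at a mean of at least 50 CPM (genes) or 100 CPM of TE counts. Other genes come from lists by function. A few genes that enter the counts and medians are not reported here by name. The members and lists were chosen with earlier results of these data known. In simulated data from these libraries, edgeR recovered 51.5%, 92.4% and 98.5% of 66, 66 and 67 genes changed by log2 1, 2 and 4, with 8.00% of calls false, and 86.2%, 96.9% and 100% of 65 TE subfamilies each, with 4.17% false. Each simulation changed 200 rows, in both directions, whereas 12966 genes were called in the real comparison. Recovery and the false share need not hold at that scale, where they were not tested. Floors cover counting error only, ± after a log2 fold change is edgeR's SE, and ± after a share is the SD between libraries.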

Additional observations from a re-analysis of the deposited data

How the results depend on the processing

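No paired analysis was possible because the NPC and cortex libraries share no replicate number. With 2 and 3 libraries, and culture, tissue, genotype and experiment all confounded with the groups, the comparisons describe these libraries. Leaving out 1 library gave 11942 to 13783 called genes (5712 to 6462 higher in NPCs, 6194 to 7321 higher in cortex), 316 to 382 called TE subfamilies (162 to 195 and 154 to 187) and a TE share difference of 0.959 to 1.01 percentage points, against 0.984 with all. DESeq2 called 13448 genes and 329 TE subfamilies, a log2 threshold of 1 called 10267 and 218, and the spread of 14 libraries gave 12596 and 374. For TE subfamilies higher in NPCs the 188 became 93 without TMM factors, 125 with library sizes of the genes and 94 at a log2 threshold of 1, and those higher in cortex became 291 without TMM factors. In uniquely mapped reads the TE share difference was 1.36 percentage points, on larger shares. These were 7.58% and 7.11% in the NPC libraries against 5.87%, 5.94% and 6.12% in the cortex libraries. Relative to the shares, the difference was smaller than in TEtranscripts counts. Direction reversed, with the cause not tested, for Junb (0.63) and Rnaseh2c (1.04) in the TEtranscripts gene counts, for Ddx4 when a library was left out (range -0.78 to 0.84, the lowest without npc_ctrl_842), and in unique reads for RLTR6C_Mm (0.34), IAPLTR2a2_Mm (0.69) and RLTR10-int (0.35). Counts of called members per list or TE group were pooled with single genes and subfamilies over all alternatives. Of these values 7232 stayed the same, 244 were weaker, 125 stronger and 6 reversed. For a single gene or subfamily, weaker or stronger means a call lost or gained. For a count it means a fall or rise beyond a set ratio. Low counts limit the NPC values of neuronal genes and the cortex values of mitosis genes, several of which rest on a few reads.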
